A study of Mus musculus with 6 samples.

Results

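Platelet-activating factor (PAF) is an ether phospholipid messenger, and PAF acetylhydrolases inactivate it by removing its acetyl group. The 5 genes described here are the 5 found, of 13024 in the count table, under the names of these enzymes. *Pla2g7* encodes the secreted plasma enzyme, *Pafah2* the intracellular type II enzyme, *Pafah1b2* and *Pafah1b3* the catalytic subunits of the intracellular type I enzyme, and *Pafah1b1* its non-catalytic subunit, LIS1. *Pla2g7* was selected on its lower level in the Gata3 CKO libraries, which was known from earlier results of these data, and the other genes were chosen by enzyme name. The contrast between CKO and control is therefore given for these genes as a description, with no test.

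RNA-Seq had been performed on 6 pools of mouse lenses at E14.5, each made of 10 lenses from 5 embryos on a mixed C57BL/6 and FVB strain, with 3 pools per group. The CKO embryos were Gata3 f/f with 1 copy of Pax6-Cre, in which an ocular enhancer and the P0 promoter of *Pax6* drive Cre in the precursors of lens and cornea and in scattered cells of the retina. The controls lacked Cre. They are wild type in the labels, while the study's text gives them once as Gata3 f/f and once as Gata3 f/wt, so they are called control here. Only CKO embryos carried Cre, so effects of Cre itself and of the deletion cannot be told apart.

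Libraries held 15157230 to 18811104 counts. *Gata3*, whose exon 4 is the deleted part, had 202, 386 and 156 counts in the controls and 910, 1064 and 894 in the libraries labelled CKO. Its level was higher in the libraries labelled CKO. Counts per gene include the exons outside the deleted part and so do not check the labels. The study examined exon 4 separately, in measurements not used here. Control replicate 2 stood apart, with 16.5% of its counts on 16 crystallin genes against 5.47% to 9.31% in the other libraries. Values without it are given beside the results that it moved most.

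PAF acts through a G protein-coupled receptor in inflammation, reproduction and vascular biology. The plasma enzyme also cleaves phospholipids whose chains were shortened by oxidation, and in other tissues macrophages are a main source of it. LIS1 has a separate role as a regulator of the dynein motor, and reduced LIS1 dosage disturbs neuronal migration in the developing brain. The lens is built of an epithelial layer and of elongated fibre cells, which fill with crystallins and later lose their organelles.

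All 5 genes are protein coding and lie on different chromosomes of GRCm38, the assembly of mm10. *Pla2g7* is on the forward strand at chr17:43568098-43612201, with up to 12 exons in a coding transcript. *Pafah2* is also on the forward strand, at chr4:134396320-134427413. The type I genes are on the reverse strand, *Pafah1b1* at chr11:74673949-74724670, *Pafah1b2* at chr9:45962859-46012690 and *Pafah1b3* at chr7:25295049-25297986. An antisense gene, 1700071M16Rik, shares 319 exon bases with *Pla2g7* on the opposite strand. The libraries were stranded, but the strand setting of the counting is not given in the sources used here, so reads of this pair may be mixed in the *Pla2g7* count. The annotation also lists pseudogene copies of *Pafah1b1*, and how shared reads were assigned is likewise not given.

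The study's qPCR primers for *Pla2g7* are shown because they mark a stretch of the transcript that can be measured independently of the libraries. They are written 5′ to 3′ in lower case, with no base singled out.
forward: cccagctcaagatcaaggtc
reverse: cagcttgcaggagttgtcag
Among annotated transcripts both primers matched only *Pla2g7*. The forward primer lies in exon 4 at chr17:43594802-43594821 and the reverse primer in exon 5 at chr17:43596908-43596927. Together they span 147 bases of the 2097-base transcript Pla2g7-201 and cross the exon junction.

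Because the deleted factor binds GATA words in DNA, the start regions of the members were searched on both strands. The words taken were AGATAA with its variant AGATAG, as well as TGATAA with its variant TGATAG. Each RefSeq window (GRCm38.p6) ran from 250 bases before to 50 bases after an annotated start. The capitals below mark the word in 30-base stretches from the forward strand, shown for the members with a word in their first window.
*Pla2g7*, chr17:43568337-43568366: acggggctagaaAGATAGgcttggggatgg
*Pafah2*, chr4:134396265-134396294: tgggacttgtagTGATAAcacttagaagca
The word of *Pla2g7* starts 102 bases before its RefSeq start, inside an exon of the annotated transcript Pla2g7-201, which begins upstream. The word of *Pafah2* starts 43 bases before its first start. *Pafah1b2* had words in 2 of 4 windows but not in the first, and *Pafah1b1* had none in its single window. *Pafah1b3* was not searched, because no start window was available for it. Such words are common: 18.08% of the windows of genes in the table and 29.76% of all 32851 windows held at least 1. A match is a description of the letters and shows no binding.

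*Pla2g7* mRNA was lower in all 3 CKO libraries than in any control. Its counts were 5297, 7830 and 4065 in control replicates 1 to 3 and 1096, 1755 and 1711 in CKO replicates 1 to 3. As CPM, the TMM-normalized counts scaled to the same library size, these were 336, 552 and 227 in the controls against 71.1, 89.3 and 89.0 in the libraries labelled CKO. The groups did not overlap, and the lowest control was 2.54 times the highest CKO value. The means were 371 ± 165 CPM (SD, n = 3) and 83.1 ± 10.4 CPM (SD, n = 3). The log2 fold change was −2.16 (SE 0.32, 95% interval −2.93 to −1.39), a level 4.47-fold lower. The interval takes no account of the choice of *Pla2g7* on this same contrast and is not a test.

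The level of this secreted enzyme varied more among control pools than that of any other member. The highest control had 2.43 times the CPM of the lowest, while the CKO pools differed by 1.26 times. Control replicate 2 was the highest of all and control replicate 3 the lowest control. Without control replicate 2 the log2 fold change of *Pla2g7* was −1.75 (SE 0.20), and without control replicate 3 it was −2.42 (SE 0.23). By mean CPM the gene ranked 297 of 13024 in the controls and 3035 in CKO. Among 10421 genes with a mean of at least 10 CPM, 10 had a more negative log2 fold change.

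**Figure D1:**
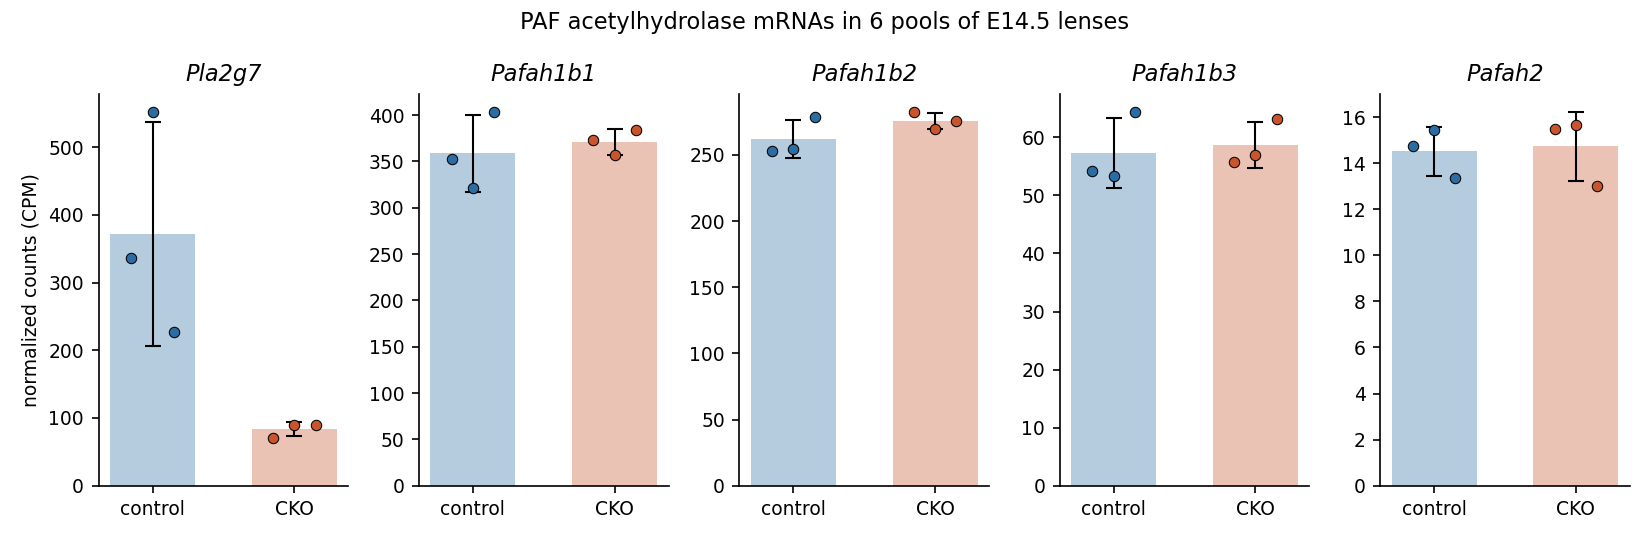
Normalized counts (CPM, linear axes from 0, a separate scale for each gene) of the 5 PAF acetylhydrolase genes in 3 control (blue) and 3 CKO (orange) pools in the order of replicates 1 to 3, with bars at the mean and error bars of 1 SD. The groups are apart for *Pla2g7* alone (227 to 552 against 71.1 to 89.3 CPM) and overlap for the other 4 genes.

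The type I enzyme gave a different picture, with groups that overlapped for each subunit. *Pafah1b1*, which encodes LIS1, had 352, 321 and 403 CPM in the controls and 373, 356 and 384 CPM in CKO. All CKO values fell within the control range. Its log2 fold change was 0.048 (SE 0.10, 95% interval −0.19 to 0.29), which corresponds to a CKO level of 0.876 to 1.22 times control.

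*Pafah1b2*, the catalytic subunit also called alpha 2, had 253, 254 and 279 CPM in the controls and 282, 270 and 275 CPM in CKO. It had the narrowest interval of the members, with a log2 fold change of 0.074 (SE 0.073, 95% interval −0.098 to 0.25). *Pafah1b3*, the alpha 1 subunit, had 54.2, 53.4 and 64.3 CPM in the controls and 55.8, 57.0 and 63.2 CPM in CKO. In both groups replicate 3 was its highest library, and the log2 fold change was 0.032 (SE 0.10, 95% interval −0.21 to 0.28).

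*Pafah2*, the type II enzyme that acts on oxidized phospholipids inside cells, was the least abundant member. It had 14.8, 15.4 and 13.3 CPM in the controls and 15.5, 15.7 and 13.01 CPM in CKO, from 219 to 308 counts in a library. Replicate 3 was the lowest in both groups, the reverse of *Pafah1b3*, but equal replicate numbers were not taken as pairs between groups. The log2 fold change was 0.021 (SE 0.13, 95% interval −0.29 to 0.34), which corresponds to a CKO level of 0.815 to 1.26 times control. The sign of the value depended on single libraries for *Pafah1b1*, *Pafah1b3* and *Pafah2*, whose values without 1 library ran from −0.014 to 0.14, from −0.024 to 0.12 and from −0.037 to 0.10.

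All 5 genes passed the filter on low counts. Their groups were free of overlap for 1 gene of 5, with CKO below control, and for none with CKO above, while 4.69% and 3.67% of the 12879 genes tested were so ordered. The quasi-likelihood test of edgeR, adjusted by Benjamini-Hochberg at 0.05, called 0 of 12879 genes (0%). Unadjusted p was under 0.05 for 457 genes in edgeR, 289 of them lower in CKO (2.24%) and 168 higher (1.3%). DESeq2 called 85 of the 12879 genes, and limma voom called 0, with 441 at an unadjusted p under 0.05. As *Pla2g7* was chosen for this contrast, nothing about the members is read from these counts.

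To compare genes with each other, CPM was divided by the length of each gene's merged exons, which runs from 2107 bases for *Pafah1b3* to 9620 for *Pafah1b1*. In the controls *Pla2g7* led with 128 ± 56.9 CPM per kilobase (SD, n = 3). *Pafah1b1* followed with 37.3 ± 4.30, *Pafah1b2* with 31.7 ± 1.75, *Pafah1b3* with 27.2 ± 2.89 and *Pafah2* with 4.01 ± 0.294 CPM per kilobase. In CKO, *Pla2g7* stood at 28.6 ± 3.59 CPM per kilobase, beside 27.8 ± 1.88 for *Pafah1b3*.

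*Pla2g7* made up more of the summed level per length in every control than in any CKO pool. Its share was 54.4%, 66.9% and 41.6% in the controls and 19.1%, 23.3% and 22.3% in CKO. The sum of the other 4 genes did not separate the groups, at 93.8 to 110 CPM per kilobase in the controls and 101 to 107 in CKO.

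**Figure D2:**
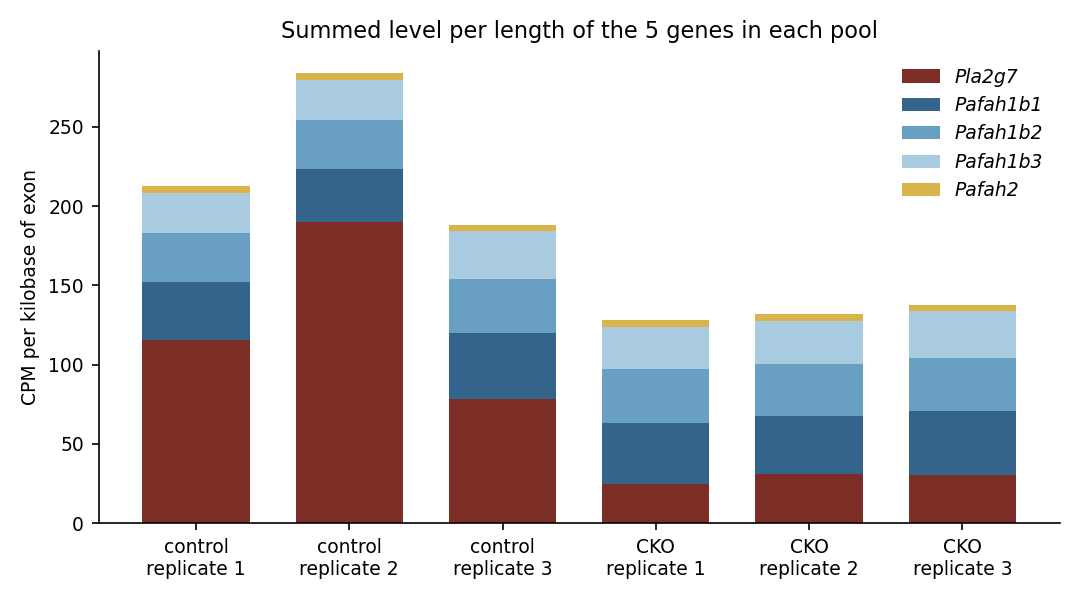
Stacked CPM per kilobase of merged exon for the 5 genes in each pool, with *Pla2g7* at the base. The bars reach 188 to 284 in the controls and 128 to 137 in CKO, and the part above *Pla2g7* spans 93.8 to 110 in all pools.

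The order of the levels per length was compared within libraries between neighbours, with the neighbours set by the order seen in these same libraries. *Pafah1b1* exceeded *Pafah1b2* in 6 of 6 libraries by a mean log2 ratio of 0.22 ± 0.071 (SD). *Pafah1b2* exceeded *Pafah1b3* in 6 of 6 by 0.24 ± 0.085, and *Pafah1b3* exceeded *Pafah2* in 6 of 6 by 2.77 ± 0.22. In an exact two-sided sign-flip permutation test each gave p = 0.03125, the smallest that 6 libraries allow, and 0.0417 after Benjamini-Hochberg adjustment over 4 neighbour pairs. The order was set on these same libraries, so the p-values do not test it. The pair with *Pla2g7* is given as a description, since that gene was chosen for its CKO level. *Pla2g7* was above *Pafah1b1* in 3 of 3 controls, by a log2 ratio of 1.69 ± 0.80 (SD, n = 3), and below it in each CKO library. The order within the type I enzyme depended on the length used: with the longest transcript in place of merged exons, *Pafah1b3* was above both *Pafah1b1* and *Pafah1b2*. The same exact permutation test gave an equally small p for *Pafah1b2* and *Pafah1b3* in this reversed order. The test therefore decides no order between these genes. *Pafah2* was the lowest with either length.

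The proportions of the type I subunits were compared within each library. The ratio of *Pafah1b2* to *Pafah1b3* in CPM was 4.66, 4.76 and 4.33 in the controls and 5.06, 4.74 and 4.36 in CKO. The CPM of *Pafah1b1* was 1.15, 1.04 and 1.18 times that of both catalytic subunits together in the controls, and 1.10, 1.09 and 1.13 times in CKO. These CPM ratios also carry the unlike exon lengths of the genes. Per kilobase of merged exon, *Pafah1b1* was 0.595 to 0.652 times both catalytic subunits together in the controls and 0.621 to 0.640 times in CKO. On that measure *Pafah1b2* was 1.10 to 1.21 times *Pafah1b3* in the controls and 1.11 to 1.29 times in CKO. Both ratios overlapped between the groups with either measure. By contrast, *Pla2g7* had 22.7, 35.8 and 17.0 times the CPM of *Pafah2* in the controls and 4.59, 5.70 and 6.84 times in CKO, without overlap.

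Over the 6 libraries, log2 CPM of *Pafah1b1* had a Pearson r of 0.81 with *Pafah1b2* and 0.87 with *Pafah1b3*. *Pafah2* had r of −0.87 with *Pafah1b3*. *Pla2g7* had r of −0.79 with *Pafah1b2*, −0.55 with *Pafah1b1*, −0.37 with *Pafah1b3* and 0.071 with *Pafah2*. These 6 points share the libraries, the scaling and the grouping, and are given as a description.

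The pools also differed in genes of lens fibre cells. All 18 fibre genes tested were lower in CKO on average. DESeq2 called 5 of them, against 85 of 12879 genes tested, while edgeR called 0 after adjustment. Unadjusted edgeR p was under 0.05 for 9, against 2.24% of all genes that were lower at this threshold. For 7, every CKO value was below every control, against 4.69% of all genes. The list was chosen with earlier results of these data known. The 18 genes summed to 27029 to 79629 CPM in the controls and 22355 to 31850 in CKO. *Cryba1*, a beta crystallin and the highest of the list, had 17192 ± 9314 CPM in the controls and 9201 ± 1684 in CKO (SD, n = 3). Without control replicate 2, 13 of the 18 genes were lower, and the log2 fold change of *Cryba1* was −0.38 in place of −0.90. The difference in mean log2 CPM of the list, CKO minus control, was −1.24 with all libraries and −0.80 without control replicate 2.

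As a single gene *Pla2g7* lay inside the range of the list, whose log2 fold changes ran from −4.64 to −0.15. *Dnase2b* (−4.64), a nuclease that degrades fibre cell DNA, *Birc7* (−3.67), *Bfsp1* (−2.72), a beaded filament protein, and *Lenep* (−2.70) were each more negative than *Pla2g7*, and are named after their values were seen. The log2 CPM of *Pla2g7* less the list mean was −0.36, −0.73 and −0.47 in the controls and −1.88, −1.14 and −1.04 in CKO, which did not overlap. The CKO value averaged 0.83 below the control, and leaving out any 1 library gave −0.99 to −0.57. In the controls *Pla2g7* and the fibre mean ranked the 3 pools in the same order, while CKO replicate 1 had the highest fibre mean and the lowest *Pla2g7* of its group. In such bulk libraries, fewer cells of a type and less RNA per cell cannot be told apart, and the part of fibre content in the *Pla2g7* difference was not tested.

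**Figure D3:**
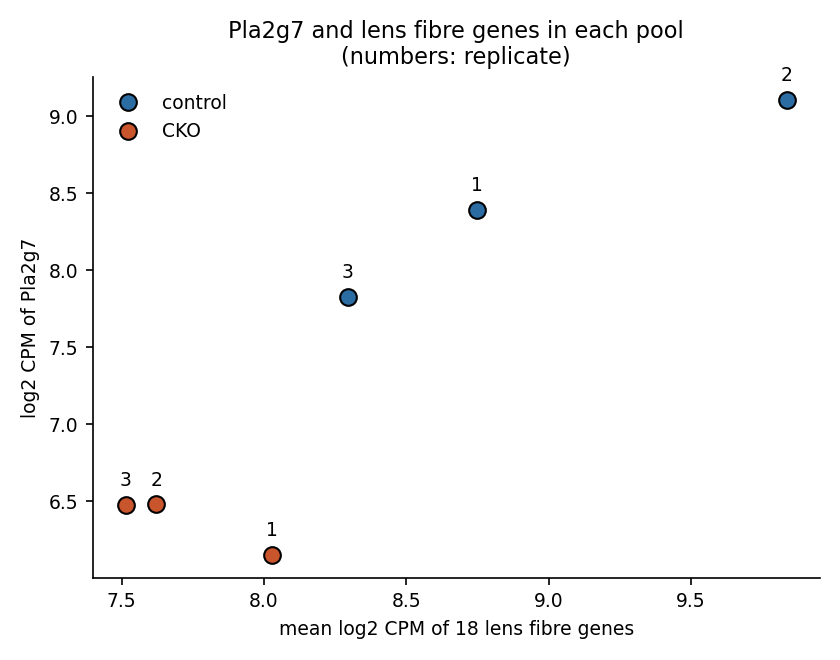
Log2 CPM of *Pla2g7* (vertical) against the mean log2 CPM of 18 lens fibre genes (horizontal) in the 3 control and 3 CKO pools, numbered by replicate. The controls lie at 7.83 to 9.11 on the vertical axis and the CKO pools at 6.15 to 6.48, with fibre means of 8.30 to 9.84 and 7.51 to 8.03.

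Macrophage genes were measured too, since these cells can make the plasma enzyme. All 13 macrophage genes tested were lower on average in CKO (12 of 13 without control replicate 2), 2 of them at an unadjusted edgeR p under 0.05. Of all genes tested, 2.24% were lower at this threshold. The macrophage genes summed to 103 to 189 CPM in the controls and 92.0 to 121 in CKO, with overlap. *Csf1r*, the macrophage growth factor receptor, had 30.6, 37.7 and 22.9 CPM in the controls and 17.8, 28.0 and 20.03 in CKO, far from 0 in each. *Cd14* and *Ptprc* were not analysed here. Whether macrophages had a part in the *Pla2g7* values was not tested.

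Of the other cell types, the 9 lens epithelial genes gave sums that did not overlap, 2463 to 2707 CPM in the controls and 2277 to 2393 CPM in CKO, and all 9 were lower on average (6 of 9 without control replicate 2). No single gene of the 9 had every CKO value below every control. The sums were weighted towards the most abundant genes, *Mki67*, *Pax6* and *Slc38a2*. The marker *Foxe3* had 76.3, 192 and 71.3 CPM in the controls and 92.5, 69.9 and 80.4 CPM in CKO. Its log2 fold change was −0.48 (SE 0.39), and 0.14 (SE 0.12) without control replicate 2. The sums of the remaining cell type lists overlapped, while those of the PAF synthesis and other phospholipase A2 lists described below did not. Blood genes summed to 361 to 1321 CPM against 313 to 426 CPM (4 of 4 tested lower, 2 of 4 without control replicate 2), with *Hba-a2*, *Hbb-bs* and *Hbb-bt* listed at 0 in all libraries, and vessel genes to 256 to 326 CPM against 229 to 286 CPM (6 of 7 lower). Mesenchymal genes summed to 303 to 2280 CPM against 344 to 3975 CPM (8 of 9 higher, 0 of 9 without CKO replicate 2), and pigment cell genes to 69.8 to 341 CPM against 72.6 to 341 CPM (4 of 6 higher, 0 of 6 without control replicate 2, control replicate 3 or CKO replicate 2), both highest in control replicate 1 and CKO replicate 2. Retinal genes summed to 833 to 1967 CPM against 1318 to 1793 CPM (10 of 10 higher, but 1 of 10 without control replicate 2 and 6 of 10 without CKO replicate 3). Without control replicate 1 the log2 fold change of *Pla2g7* was −2.21, and without CKO replicate 2 it was also −2.21. Each of these fits kept the other pool, and whether other tissues had a part in the *Pla2g7* values was not tested.

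The genes tested from the list for PAF synthesis and its receptor had log2 fold changes between −0.19 and 0.21. Not every enzyme in this list makes PAF. Of 9 symbols in this list, 7 were tested, of which 6 were higher and 1 lower in CKO. None passed either the adjusted or the unadjusted threshold in edgeR. Of all 12879 genes, 0 passed the first threshold and 457 the second. Passing none therefore does not set this list or those below apart. The median log2 fold change of the list was 0.036, against 0.0019 over all genes tested. *Lpcat1*, an acyltransferase that can acetylate lyso-PAF, had 54.2 ± 6.01 CPM in the controls and 62.9 ± 5.27 in CKO (log2 fold change 0.21, SE 0.11, adjusted p = 0.9998). *Cept1*, a choline and ethanolamine phosphotransferase, had 30.9 ± 2.19 and 35.6 ± 1.75 CPM (0.20, SE 0.092, adjusted p = 0.9998), with all CKO libraries above the controls. This order was found for 3.67% of all genes tested. *Chpt1*, *Lpcat3*, *Lpcat4* and *Selenoi* lay between 0.029 and 0.079. *Lpcat2*, the inducible lyso-PAF acetyltransferase of inflammatory cells, was low, at 4.12 ± 1.49 and 3.62 ± 0.300 CPM, and is named after its values were seen. The receptor gene *Ptafr* was not analysed here, and *Ept1* is an older symbol of *Selenoi*.

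Ether lipid genes include those that supply the alkyl chain from which PAF and plasmalogens are built. Of 9 tested, 4 were lower and 5 higher, with a median log2 fold change of 0.012 and none past either threshold in edgeR. The peroxisomal enzymes *Gnpat* (−0.083, SE 0.089) and *Agps* (0.061, SE 0.061) and the fatty acyl-CoA reductase *Far1* (0.051, SE 0.075), the most abundant of the list, had values close to 0. The largest log2 fold changes belonged to *Pex7* (0.19, SE 0.14), an import receptor for peroxisomal enzymes, *Dhrs7b* (−0.19, SE 0.20), which completes the alkyl precursor, and *Tmem86a* (−0.14, SE 0.24).

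*Pla2g7* is counted among the phospholipases A2 by name, and in the controls it was the highest of 12 such genes per length. Its 128 CPM per kilobase compared with 35.3 for *Pla2g16* and 8.71 for *Pnpla6*, the next in order. Of the 11 other phospholipases A2 tested, 8 were lower and 3 higher in CKO. Their median log2 fold change was −0.088. *Pla2g16*, a phospholipase of lens and fat that acts in organelle breakdown, had 181, 365 and 131 CPM in the controls and 93.8, 70.6 and 66.3 CPM in CKO. These groups did not overlap, with CKO below control as for 4.69% of all genes tested, and control replicate 2 was again the highest. Its log2 fold change was −1.55 (SE 0.38), with an adjusted p of 0.76 in edgeR (unadjusted 0.0055) and 0.0026 in DESeq2. Without control replicate 2 its log2 fold change was −1.01 (SE 0.21).

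The other phospholipases had groups that overlapped. The calcium-dependent cytosolic enzyme *Pla2g4a* had 11.9 ± 2.24 and 8.84 ± 2.44 CPM (log2 fold change −0.43, SE 0.25). The calcium-independent enzymes *Pla2g6* (−0.080, SE 0.10), *Pnpla6* (−0.18, SE 0.25) and *Pnpla8* (−0.044, SE 0.068) and the secreted *Pla2g12a* (−0.088, SE 0.16) were nearer to 0. The lysosomal *Pla2g15* had 0.064 (SE 0.19).

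**Figure D4:**
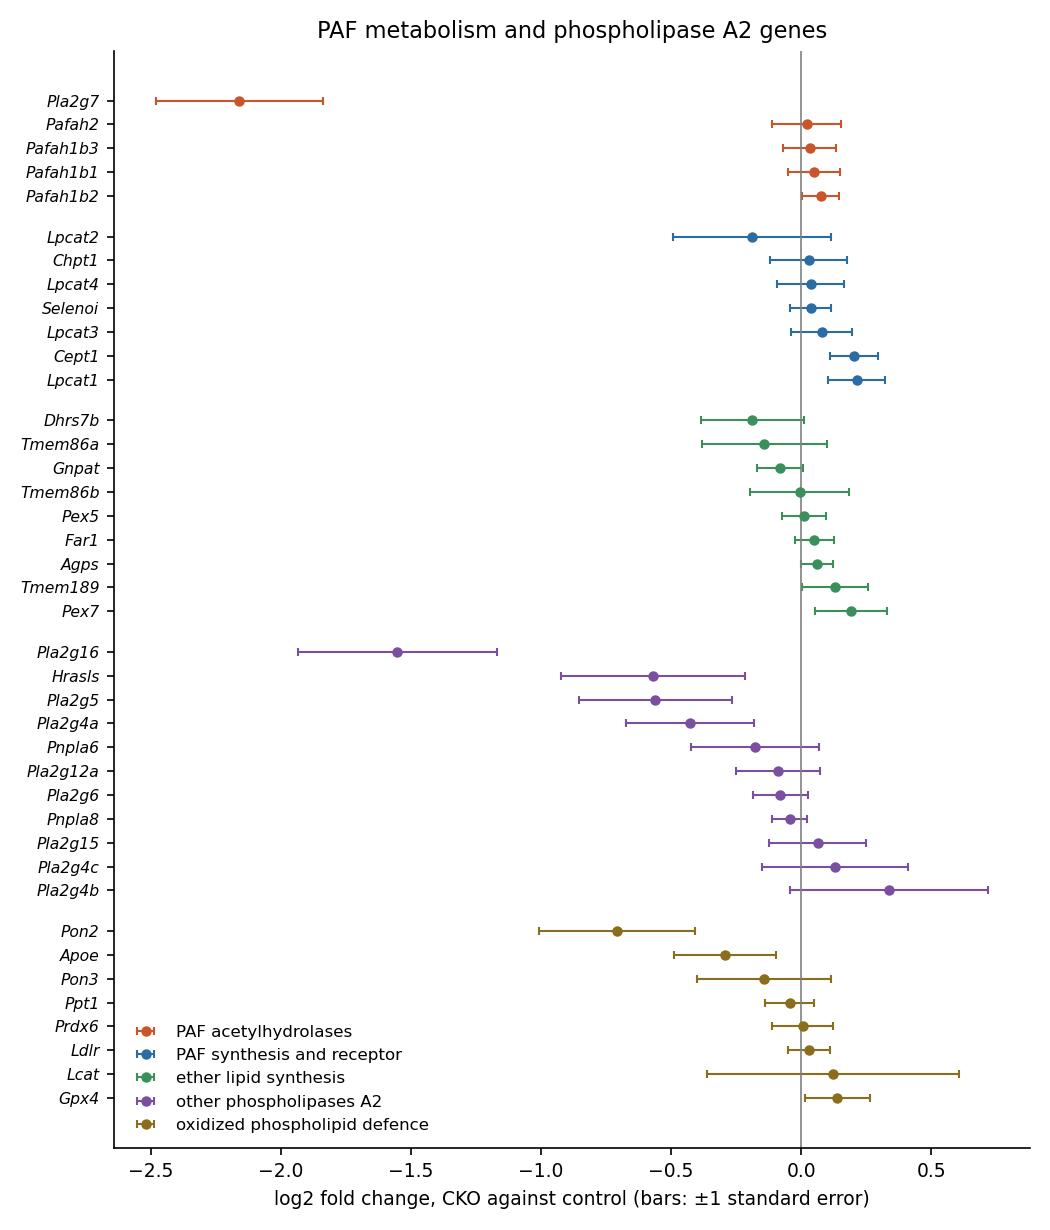
Log2 fold change of CKO against control (points) with 1 standard error (bars) from edgeR for the PAF acetylhydrolases and 4 related gene lists, ordered by value within each list. *Pla2g7* at −2.16 and *Pla2g16* at −1.55 lie apart, and every other gene shown lies between −0.71 and 0.34.

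Genes that deal with oxidized phospholipids, the further substrates of *Pla2g7* and *Pafah2*, went both ways. Of 8 tested, 4 were lower and 4 higher, with a median log2 fold change of −0.020 and none past either threshold in edgeR. *Pon2*, an intracellular paraoxonase, had 157, 269 and 115 CPM in the controls and 127, 106 and 98.7 CPM in CKO (−0.71, SE 0.30, adjusted p = 0.9998), with overlap. Without control replicate 2 the value of *Pon2* was −0.29 (SE 0.17). *Apoe* (−0.29, SE 0.20), *Pon3* (−0.14, SE 0.26) and *Prdx6* (0.0051, SE 0.12), which has phospholipase activity itself, completed the named genes. *Gpx4*, which reduces lipid hydroperoxides, was the only gene of the list with every CKO library above the controls (11.9 ± 0.387 and 13.1 ± 0.862 CPM). Such an order was found for 3.67% of all genes tested, and *Gpx4* was picked after its values were seen.

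LIS1 works with dynein, its dynactin partner and cargo adaptors, and these genes had log2 fold changes between −0.62 and 0.13. Of 22 tested, 14 were lower and 8 higher in CKO. Their median log2 fold change was −0.024, and 0 were called after adjustment in edgeR or by DESeq2. The heavy chain *Dync1h1* had 822 ± 64.3 CPM in the controls and 732 ± 53.7 in CKO (−0.17, SE 0.10), and *Dynll2* (−0.057, SE 0.12) and *Dctn1* (−0.0044, SE 0.094) were the next most abundant. The largest log2 fold changes were those of *Dync1i1* (−0.62, SE 0.29, and −0.27 without control replicate 2), *Dynlt1b* (−0.28, SE 0.23) and *Ndel1* (−0.21, SE 0.15), a direct LIS1 partner. *Bicd2*, a cargo adaptor named after its values were seen, was the only one at an unadjusted p under 0.05 (−0.17, SE 0.065, adjusted p = 0.9998), with CKO below every control. Over all genes tested, 2.24% were lower at this threshold and 4.69% had every CKO value below every control, so 1 gene of 22 does not stand out. Of the reelin pathway, whose mutants share layering defects with those of LIS1, 4 genes were tested and none passed either threshold. *Reln* (−0.21, SE 0.22) and *Dab1* (−0.11, SE 0.093) were lower, and the receptors *Vldlr* (0.14, SE 0.17) and *Lrp8* (0.057, SE 0.13) higher.

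Among 10420 genes with a mean of at least 10 CPM, *Crat*, which encodes carnitine acetyltransferase, had the pattern most like that of *Pla2g7*. Its Pearson r over log2 CPM in 6 libraries was 0.996, with 47.4, 55.2 and 43.3 CPM in the controls and 34.5, 35.3 and 35.2 in CKO. It shared the order of the libraries with *Pla2g7* exactly but had a much smaller range, with a log2 fold change of −0.47 (SE 0.11). *Crat* is the highest of 10420 genes, and the 6 libraries hold the groups on which *Pla2g7* was chosen. The likeness is therefore a description.

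The next were *Cenpx* (r = 0.989), a centromere and DNA repair protein, *Timeless* (0.987), which protects replication forks, and *Snhg12* (0.984), a host gene of small nucleolar RNAs. *Zgpat* (0.977), *Ap3b1* (0.976), *Pgam2* (0.974) and *Carnmt1* (0.974) completed the 8. Only *Pgam2*, the muscle form of phosphoglycerate mutase, had a log2 fold change near that of *Pla2g7* (−2.17, SE 0.35), with 62.1, 114 and 46.3 CPM in the controls and 19.3, 16.6 and 13.5 in CKO. Of the 10420 genes of this set 37 had r above 0.95, and 22 had a Spearman correlation of 1, so *Crat* was not alone in this order. The other members were far down the ranking, from 4625 for *Pafah2* to 10119 for *Pafah1b2*. Without control replicate 2, *Crat* remained first and 4 of the 8 stayed among the first 20.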

How the data were processed

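Polyadenylated RNA of 6 lens pools was sequenced from stranded libraries. The authors aligned reads to mm10 with Tophat 2.0.13 and counted fragments per RefSeq gene with HTSeq 0.6.1; the deposited values are raw counts, described as kept where mean FPKM exceeded 1 for either genotype, although 42 of 13024 rows were 0 throughout. The CKO titles number the libraries differently from their descriptions, and the title numbers are used. Genes reaching 10 counts in 3 or more libraries (12879) were TMM-normalized and tested with the robust quasi-likelihood test of edgeR 4.0.16 (R 4.3.3). DESeq2 1.42.0 and limma 3.58.1 were alternatives. Log2 CPM used a prior count of 1. Standard errors are the absolute log2 fold change divided by the square root of the F statistic of that test. Intervals are 95% and assume the model's spread. Exon lengths came from GENCODE for GRCm38. Scripts were tested on simulated data. The members and gene lists (PAF, ether lipid, phospholipase, oxidized phospholipid, dynein, reelin and cell type) were chosen with earlier results of these data known. Named genes were the members, PAF and phospholipase genes of at least 10 mean CPM, the 3 most changed and 3 most abundant genes of the other pathway lists, the 8 genes most like *Pla2g7*, *Gata3* and markers. Pools were separate embryos.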

Additional observations from a re-analysis of the deposited data

How the results depend on the processing

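*Pla2g7* was lower in CKO under every alternative run, with log2 fold changes from −2.42 to −1.75. Its values without 1 library are given above, and other scalings, filters and tests gave −2.16 to −2.08. The number of genes called was 0 in each alternative other than DESeq2 (85) and the fit without control replicate 3 (1, *4930412O13Rik*), so leaving out 1 library gave 0 to 1. Same-numbered pools did not deviate together (r = −0.49, 0.090 and 0.44), so the numbers were not taken as pairs, and the fit with a replicate block called 0 genes (516 unadjusted) and gave −2.08 for *Pla2g7*. The 4 other members moved by less than their spread between pools under all alternatives. With the longest transcript as length, the log2 ratio of *Pafah1b2* to *Pafah1b3* turned to −0.42. Leaving out 1 library gave log2 ratios of 0.20 to 0.24 for *Pafah1b1* over *Pafah1b2*, 0.22 to 0.26 for *Pafah1b2* over *Pafah1b3* and 2.71 to 2.81 for *Pafah1b3* over *Pafah2*; 5 libraries cannot give p below 0.0625. The same step gave median log2 fold changes of 0.049 to 0.13 for the PAF synthesis list, 0.0062 to 0.063 for ether lipids, −0.13 to 0.023 for oxidized phospholipids, −0.049 to 0.0093 for LIS1 partners, −0.073 to 0.043 for the reelin pathway and −0.17 to −0.018 for other phospholipases A2, so the sign depended on single libraries for oxidized phospholipids, LIS1 partners and reelin. Set against summed crystallin counts instead of the fibre list, *Pla2g7* was −1.27 in CKO relative to control. Of the 8 genes most like *Pla2g7*, 2 were among the first 8 by Spearman correlation, and 2 without control replicate 2. Counting error alone was 0.097 on the log2 scale at the lowest count of *Pafah2* (219), close to its SD of 0.11 between controls, and 0.044 at the lowest count of *Pla2g7* (1096), against an SD of 0.64. The values of cell type lists, single genes and the fibre mean without 1 library were added after seeing the data.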
